A study of Mus musculus with 9 samples.

Results

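MHC class I presentation was described here through 10 genes: Nlrc5, B2m, H2-K1, H2-D1, Tap1, Tap2, Tapbp, Psmb8, Psmb9 and Psmb10. They were chosen by name, as the entries of the deposited gene table whose symbol was one of these, and all 10 were found among its 35275 entries. The choice was made with earlier results of these data known, so their contrasts with all tested genes below are a description. All 10 were also among the 13151 genes abundant enough to be tested. Total RNA of the liver of C57BL/6 mice was sequenced in 9 libraries. A group of 3 came from mice given AdipoRonPEG5, a PEGylated analog of AdipoRon, another 3 from mice given AdipoRon, which activates the receptors of the hormone adiponectin, and 3 from mice given the PBS vehicle. The protocol also names AdipoRonPEG6HTL, not analysed here. The labels give 5 mg/kg in 2 daily injections over 5 days for both compounds and for PBS in the same sentence, which leaves the doses of the compounds uncertain. For age, sex and diet the labels say nothing, and they do not say that the 3 libraries of a group came from separate animals, so the p-values measure the spread between these libraries, which may be technical.

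MHC class I molecules show peptides from inside a cell to CD8 T cells, and natural killer cells sense their level. The proteasome cuts proteins into peptides, the TAP transporter carries these into the endoplasmic reticulum, and tapasin helps to load them onto a heavy chain paired with beta-2-microglobulin. The immunoproteasome is a form of the proteasome in which the catalytic subunits are exchanged for Psmb8, Psmb9 and Psmb10, and interferon gamma is the classic inducer of these genes. In healthy liver the hepatocytes carry little class I, while Kupffer cells, the resident macrophages, and the sinusoidal endothelium carry more.

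In AdipoRonPEG5 livers, 6 of the 10 genes rose against vehicle and none fell, against a background of 9.55% of all tested genes that passed as higher (17.2% in either direction). The 6 were the activator Nlrc5, both TAP subunits, tapasin (Tapbp) and the immunoproteasome subunits Psmb9 and Psmb10. For the light chain B2m, the classical heavy chains H2-K1 and H2-D1, and Psmb8, the values did not pass. In AdipoRon livers Nlrc5 alone passed, against a background of 3.8% higher, 1.4% lower and 5.2% in either direction. In the same libraries 12 markers of macrophages and Kupffer cells summed to 781 to 790 CPM in AdipoRonPEG5 livers, 490.2 to 859 CPM in AdipoRon livers and 203 to 294 CPM in vehicle livers. Their part in the class I results was not tested, and in bulk RNA more cells of a type and more RNA per cell cannot be told apart. A gene passed at a Benjamini-Hochberg adjusted p under 0.05 over all tested genes in edgeR's quasi-likelihood test, the source of every adjusted p and log2 fold change given here. Levels are in CPM, counts scaled to the library size, by the TMM method, and both compounds were set against the same vehicle libraries.

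The libraries held 13942322 to 18508950 counts, and 39473195 in vehicle 1. A floor of 3 counts lay between 0.076 and 0.215 CPM, far below every value of the 10 genes, which together took 0.379% to 0.530% of the counts. Vehicle 3 and AdipoRonPEG5 1 stood apart by the acute phase gene Saa1, at 1952 CPM in AdipoRonPEG5 1 and 4959 CPM in vehicle 3, against 45.1 to 497 CPM in the other 7 libraries. With both left out, 4 of the 10 genes passed as higher with AdipoRonPEG5 against vehicle: Nlrc5, Tap1, Tapbp and Psmb10. Over all tested genes 1945 then passed in either direction, beside 2260 with all 9 libraries. AdipoRon 1 was the highest library of its group for 10 of the 10 genes, and vehicle 3 the highest of its group for 8 of them. In AdipoRonPEG5 livers the highest library was AdipoRonPEG5 1 for 4 genes, AdipoRonPEG5 2 for 1 and AdipoRonPEG5 3 for 5.

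**Figure D1:**
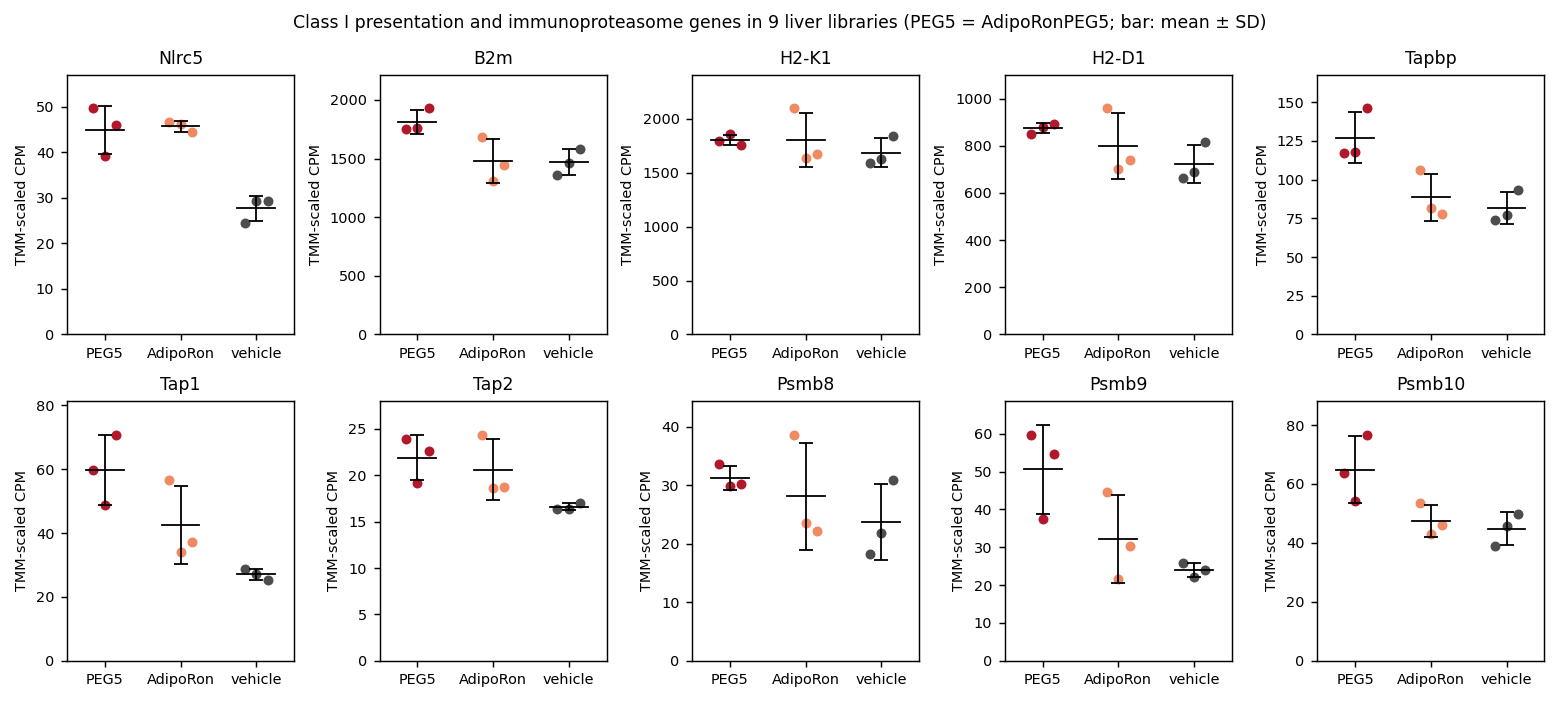
TMM-scaled CPM of each of the 10 genes in every library, with the mean and SD of 3 libraries per group and every axis starting at 0. In 8 of the 10 panels all AdipoRonPEG5 points lie above all vehicle points, beside 18.2% of all tested genes. The exceptions among the 10 are H2-K1 and Psmb8.

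Nlrc5 is the transcriptional activator of MHC class I genes. It stood at 49.7, 39.3 and 46.0 CPM in AdipoRonPEG5 livers, 46.7, 46.2 and 44.4 CPM in AdipoRon livers and 24.5, 29.3 and 29.3 CPM in vehicle livers. All 6 libraries of treated mice lay above all 3 vehicle libraries, and the ranges of the compounds overlapped. Nlrc5 was 1.63-fold higher with AdipoRonPEG5 than with vehicle (log2 fold change 0.70 ± 0.10 (SE), adjusted p = 0.00153). With AdipoRon it was 1.66-fold higher (log2 fold change 0.73 ± 0.10, adjusted p = 0.00431). Between the compounds its log2 difference was -0.03, with a 95% confidence interval from -0.25 to 0.19 (adjusted p = 0.911). Nlrc5 passed against vehicle in all 21 alternative settings with either compound.

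Nlrc5 is a long gene of 6945 bases, in the longest of 10 equal classes of tested genes ranked by length. With AdipoRon against vehicle, the median log2 fold change ran from -0.19 in the shortest class to 0.12 in the longest, so that long genes were somewhat higher overall. In the longest class 6.24% of genes passed as higher with AdipoRon, and 9.51% with AdipoRonPEG5. With trends on length, or on length and GC content, taken out of each library, an alternative chosen after seeing the data, Nlrc5 still passed with both compounds. An antisense gene, 9330175E14Rik, overlaps its exons and had 34 to 137 counts per library, against 392 to 955 for Nlrc5. No strand setting is given in the sources used here, and none of the 7529 stretches of 50 bases in the Nlrc5 transcript compared occur in another gene.

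The 5 genes whose pattern over the 9 libraries was most like that of Nlrc5, among 12036 genes with a mean of at least 1 CPM, were Bahd1, Ubtd1, Prkcd, Setd7 and Rnf24. Likeness was the root mean square difference of centred log2 CPM, which was 0.113 for Bahd1, 0.116 for Ubtd1, 0.128 for Prkcd and for Setd7, and 0.130 for Rnf24. All 5 passed as higher with AdipoRonPEG5 against vehicle, with log2 fold changes from 0.56 for Bahd1 to 0.84 for Setd7, a direction that their likeness to Nlrc5 fixes; the Rnf24 call ended in 3 alternatives (without vehicle 1, without AdipoRonPEG5 1, and without vehicle 3 and AdipoRonPEG5 1 together). Among the other 9 class I genes Tap2 came nearest, at 0.212, as the 197th nearest gene.

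The light chain and the heavy chains form the class I molecule itself and were the most abundant of the 10 genes. B2m, the invariant light chain, stood at 1749, 1759 and 1928 CPM in AdipoRonPEG5 livers, 1685, 1311 and 1443 CPM in AdipoRon livers and 1362, 1458 and 1584 CPM in vehicle livers. The lowest AdipoRonPEG5 library lay above the highest of the other 6. Its log2 fold change with AdipoRonPEG5 against vehicle was 0.30 ± 0.11 (1.23-fold), with an adjusted p of 0.0871, which fell to 0.0300 with total-count scaling, 0.0411 in DESeq2 and 0.0466 without vehicle 3. With AdipoRon against vehicle it was 0.01 ± 0.11 (adjusted p = 0.966), and ran from -0.09 to 0.20 over the 21 alternatives.

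H2-K1 and H2-D1 encode the classical class I heavy chains of this strain. H2-K1 stood at 1791, 1857 and 1761 CPM in AdipoRonPEG5 livers, 2097, 1640 and 1675 CPM in AdipoRon livers and 1591, 1630 and 1837 CPM in vehicle livers. The 3 groups overlapped, with the highest value in AdipoRon 1. H2-D1 stood at 852, 882 and 894 CPM in AdipoRonPEG5 livers, 959, 701 and 741 CPM in AdipoRon livers and 662, 690 and 817 CPM in vehicle livers. For H2-D1 all AdipoRonPEG5 libraries lay above all vehicle libraries, and AdipoRon 1 lay above them all. The log2 fold change with AdipoRonPEG5 against vehicle was 0.10 for H2-K1, with a 95% confidence interval from -0.15 to 0.35 (adjusted p = 0.605), and 0.28 for H2-D1, from -0.004 to 0.56 (adjusted p = 0.165).

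H2-K1 and H2-D1 are near copies of each other and of other class I genes, and the counting could split or drop such reads. Of the 1570 stretches of 50 bases in the H2-K1 transcript compared, 138 (8.79%) also occur in another gene, 109 of them in H2-D1. For H2-D1 it was 294 of 2053 (14.3%), most of them, 152, in H2-Q1. How such reads were counted was not tested, so both counts are uncertain by an unknown amount. The deposited FPKM of H2-K1 was 2.36, 2.36 and 2.21 times that of H2-D1 in AdipoRonPEG5 libraries, 2.45, 2.62 and 2.54 times in AdipoRon libraries and 2.70, 2.65 and 2.52 times in vehicle libraries. The AdipoRonPEG5 ratios all lay below the others. The summed FPKM of both heavy chains was 0.669, 0.689 and 0.609 times that of B2m in AdipoRonPEG5 libraries, 0.804, 0.793 and 0.742 times in AdipoRon libraries and 0.735, 0.707 and 0.743 times in vehicle libraries, again lowest with AdipoRonPEG5.

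The promoters of B2m, H2-K1 and H2-D1 are shown because they hold the classic class I promoter elements, to which NLRC5 is recruited through DNA-bound factors, while Nlrc5 passed the test and these 3 genes did not. They come from the RefSeq table for GRCm38.p6, which held an entry for 8 of the 10 genes, all but Nlrc5 and Tap2. Each covers 250 bases before and 50 bases after an annotated start site, on the strand of the gene: B2m at chr2:122147437-122147736 on the plus strand, H2-K1 at chr17:34000298-34000597 on the minus strand and H2-D1 at chr17:35262844-35263143 on the plus strand. Capitals mark the letters, on either strand, of the interferon regulatory factor core AANNGAAA, the class I kappa B element (the first run of capitals in the H2-K1 and H2-D1 windows), the X2 core TGACG and the Y box ATTGG.
B2m: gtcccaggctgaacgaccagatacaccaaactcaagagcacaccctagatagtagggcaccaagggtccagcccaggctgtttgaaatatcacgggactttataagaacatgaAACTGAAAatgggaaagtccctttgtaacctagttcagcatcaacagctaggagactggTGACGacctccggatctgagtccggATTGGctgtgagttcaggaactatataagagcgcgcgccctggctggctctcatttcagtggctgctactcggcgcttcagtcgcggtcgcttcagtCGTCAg
H2-K1: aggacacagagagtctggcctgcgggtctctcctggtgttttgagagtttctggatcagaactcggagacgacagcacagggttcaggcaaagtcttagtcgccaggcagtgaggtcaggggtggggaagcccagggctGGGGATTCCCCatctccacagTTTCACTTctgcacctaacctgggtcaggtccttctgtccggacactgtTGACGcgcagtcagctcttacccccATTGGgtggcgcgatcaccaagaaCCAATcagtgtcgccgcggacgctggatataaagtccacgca
H2-D1: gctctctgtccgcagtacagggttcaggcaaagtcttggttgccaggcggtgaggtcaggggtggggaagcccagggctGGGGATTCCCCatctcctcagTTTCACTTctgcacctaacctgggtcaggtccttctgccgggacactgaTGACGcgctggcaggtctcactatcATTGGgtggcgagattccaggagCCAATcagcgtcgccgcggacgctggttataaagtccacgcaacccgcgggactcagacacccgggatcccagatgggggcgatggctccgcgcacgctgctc

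All 3 windows held TGACG followed, after 20 bases, by ATTGG on the same strand, from -78 to -49 of the start site in B2m, -41 to -12 in H2-K1 and -101 to -72 in H2-D1. This arrangement occurred in 31 of 32851 RefSeq promoters of the same length (0.0944%), which belong to 27 genes. The spacing was read from these windows after they were seen, so their match to it is a description. The kappa B letters were in the H2-K1 and H2-D1 windows and in 10 promoters of all (0.0304%), and the interferon regulatory factor core was in all 3 windows and in 23.9% of promoters. Single TGACG and ATTGG matches are common, in 20.8% and 37.4% of promoters.

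The transporter, which delivers the peptides, held the gene with the largest fold change of the 10 in the main fit, Tap1. Tap1 and Tap2 are the 2 subunits of the TAP transporter. Tap1 stood at 59.8, 48.7 and 70.8 CPM in AdipoRonPEG5 livers, 56.6, 33.9 and 37.0 CPM in AdipoRon livers and 28.8, 27.1 and 25.4 CPM in vehicle livers. All 6 libraries of treated mice lay above all vehicle libraries, and AdipoRon 1 lay within the AdipoRonPEG5 range. Tap1 was 2.19-fold higher with AdipoRonPEG5 than with vehicle (log2 fold change 1.13 ± 0.19, adjusted p = 0.00272), and passed in all 21 alternatives. In AdipoRon livers the log2 fold change was 0.64 ± 0.19 (adjusted p = 0.0710); this passed with total-count scaling (0.0370), with no filter on low counts (0.0154) and in DESeq2 (0.0179).

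Tap2, the partner subunit of Tap1, stood at 23.9, 19.2 and 22.6 CPM in AdipoRonPEG5 livers, 24.4, 18.7 and 18.7 CPM in AdipoRon livers and 16.4, 16.4 and 17.0 CPM in vehicle livers. The libraries of treated mice again all lay above those of vehicle mice, by less than for Tap1. Tap2 was 1.32-fold higher with AdipoRonPEG5 than with vehicle (log2 fold change 0.40 ± 0.12, adjusted p = 0.0461). The call ended in 9 of the 21 alternatives, 6 of them with 1 library left out (vehicle 1, 2 or 3, AdipoRon 3, AdipoRonPEG5 1 or 3), with adjusted p-values of 0.0546 to 0.147. The deposited FPKM of Tap1 was 2.20, 2.23 and 2.76 times that of Tap2 in AdipoRonPEG5 libraries, 2.05, 1.60 and 1.74 times in AdipoRon libraries and 1.55, 1.46 and 1.31 times in vehicle libraries. The ratio was lowest in the vehicle libraries and did not overlap between any pair of groups.

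Tapbp encodes tapasin, which holds empty class I molecules at the transporter and edits their peptides. It stood at 117, 118 and 146 CPM in AdipoRonPEG5 livers, 106, 81.8 and 77.7 CPM in AdipoRon livers and 74.2, 77.1 and 93.5 CPM in vehicle livers. The AdipoRonPEG5 libraries lay above all others, and the AdipoRon and vehicle libraries overlapped. Tapbp was 1.56-fold higher with AdipoRonPEG5 than with vehicle (log2 fold change 0.64 ± 0.14, adjusted p = 0.00986), in the main fit and all 21 alternatives. In AdipoRon livers the log2 fold change of Tapbp was 0.12 ± 0.14 (adjusted p = 0.663).

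The Tap1 promoter is shown because Tap1 and Psmb9 lie head to head on opposite strands, and their RefSeq windows have 275 bases in common. Exons of the pair also overlap in the annotation. None of the 1303 stretches of 50 bases in the Psmb9 transcript compared occur in another gene. That transcript has 1352 bases, while the FPKM imply a Psmb9 gene length of 2884 bases. Sharing of reads with Tap1 was therefore not checked over the whole gene. The window lies at chr17:34187306-34187605 of GRCm38.p6 on the plus strand, with capitals as above. It held 1 X2 core, from -86 to -82, and 1 Y box, from -222 to -218, outside the spacing of the class I windows.
Tap1: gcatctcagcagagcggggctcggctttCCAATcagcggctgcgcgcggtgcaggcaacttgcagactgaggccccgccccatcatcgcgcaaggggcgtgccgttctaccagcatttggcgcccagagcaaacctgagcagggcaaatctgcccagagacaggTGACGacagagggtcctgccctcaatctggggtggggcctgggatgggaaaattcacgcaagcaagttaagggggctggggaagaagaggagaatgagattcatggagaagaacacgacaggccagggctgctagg

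Psmb9 replaces Psmb6 in the immunoproteasome. It stood at 59.7, 37.4 and 54.6 CPM in AdipoRonPEG5 livers, 44.7, 21.6 and 30.4 CPM in AdipoRon livers and 25.8, 22.2 and 23.9 CPM in vehicle livers. The AdipoRonPEG5 libraries lay above all vehicle libraries, and the AdipoRon libraries, from 21.6 to 44.7 CPM, overlapped both. Psmb9 was 2.10-fold higher with AdipoRonPEG5 than with vehicle (log2 fold change 1.07 ± 0.23, adjusted p = 0.0107). Without vehicle 3 and AdipoRonPEG5 1 its adjusted p was 0.0561; it passed in the other 20 alternatives. In AdipoRon livers the log2 fold change of Psmb9 was 0.42 ± 0.24 (adjusted p = 0.329).

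Psmb10 replaces Psmb7. It stood at 63.8, 54.1 and 76.7 CPM in AdipoRonPEG5 livers, 53.6, 42.9 and 45.9 CPM in AdipoRon livers and 39.0, 45.8 and 49.8 CPM in vehicle livers. The AdipoRonPEG5 libraries lay above all others, the lowest of them by little. Psmb10 was 1.45-fold higher with AdipoRonPEG5 than with vehicle (log2 fold change 0.54 ± 0.14, adjusted p = 0.0221), a call that ended without vehicle 1 (0.0790), vehicle 2 (0.0618) or AdipoRonPEG5 3 (0.0868). In AdipoRon livers the log2 fold change of Psmb10 was 0.09 ± 0.14 (adjusted p = 0.765).

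Psmb8 replaces Psmb5. It stood at 33.6, 29.8 and 30.2 CPM in AdipoRonPEG5 livers, 38.6, 23.5 and 22.2 CPM in AdipoRon livers and 18.3, 21.9 and 30.9 CPM in vehicle livers. Vehicle 3 lay within the AdipoRonPEG5 range, and the highest value of all was in AdipoRon 1. Its log2 fold change was 0.41 ± 0.22 in AdipoRonPEG5 livers (adjusted p = 0.233) and 0.26 ± 0.22 in AdipoRon livers (adjusted p = 0.534), both against vehicle. Some 50-base stretches of Psmb8 (5.83%), Tapbp (21.0%) and Tap2 (12.6%) occur in other gene models, most of them on the other strand, so that without a strand setting their reads may be shared.

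The constitutive subunits did not all stay level. Psmb5 rose with AdipoRonPEG5 against vehicle (log2 fold change 0.42 ± 0.07, adjusted p = 0.00356), while the values of Psmb6 (0.01, adjusted p = 0.929) and Psmb7 (0.07, adjusted p = 0.529) did not pass. The share of the immunoproteasome subunit in the summed FPKM of each pair was therefore taken within each library, on the authors' per-length scale. The absolute level of a share depends on the gene lengths used in that scale. Psmb9 made up 9.42 ± 1.86% of Psmb9 and Psmb6 in AdipoRonPEG5 livers, 6.93 ± 2.31% in AdipoRon livers and 4.76 ± 0.470% in vehicle livers (SD, n = 3 each). Psmb10 made up 26.6 ± 3.63% of Psmb10 and Psmb7 in AdipoRonPEG5 livers, 21.9 ± 2.28% in AdipoRon livers and 20.8 ± 2.24% in vehicle livers. Both shares were higher in every AdipoRonPEG5 library than in any vehicle library. For each of them the exact two-sided permutation p was 0.1, the smallest that 3 against 3 can give (0.36 adjusted over the 9 tests of this kind). Psmb8 made up 7.99 ± 0.788% of Psmb8 and Psmb5 in AdipoRonPEG5 livers, 9.55 ± 2.60% in AdipoRon livers and 8.03 ± 1.66% in vehicle livers, with an exact p of 1 for AdipoRonPEG5 against vehicle. For AdipoRon against vehicle the exact p-values ran from 0.2 to 0.6, and between the compounds from 0.2 to 0.5.

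**Figure D2:**
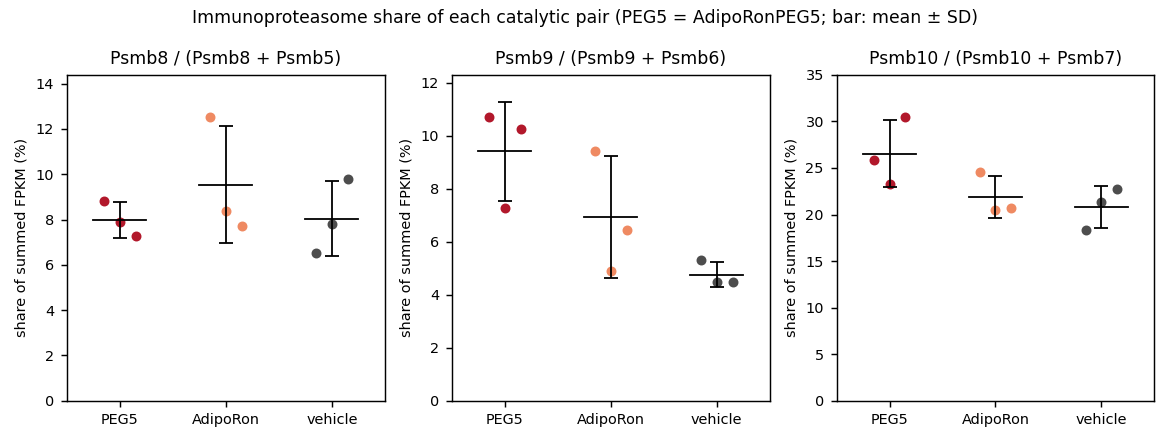
Share (%) of each immunoproteasome subunit in the summed FPKM of its catalytic pair, per library, with mean and SD of 3 libraries. The AdipoRonPEG5 points lie above the vehicle points for Psmb9 and Psmb10 and overlap them for Psmb8. Psmb5, the constitutive counterpart of Psmb8, passed as higher with AdipoRonPEG5 against vehicle, and Psmb8 did not.

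Levels between genes were compared on the authors' FPKM scale, which divides by gene length. In all 3 groups the order began with B2m, H2-K1, H2-D1, Psmb10 and Tapbp. B2m averaged 2137 FPKM in AdipoRonPEG5, 1768 FPKM in AdipoRon and 1632 FPKM in vehicle livers, and H2-K1 averaged 977, 989 and 860 FPKM in the same groups. In vehicle livers Psmb8 (11.8 FPKM) stood above Psmb9 (7.96), Tap1 (6.65), Tap2 (4.62) and Nlrc5 (3.82), and no neighbours in the order overlapped. Psmb8 and Psmb9 averaged 23.7 and 23.9 CPM there, so their order rests on the gene lengths of 1907 and 2884 bases that the FPKM imply. Their transcripts compared for shared stretches had 1628 and 1352 bases, the opposite order. In AdipoRonPEG5 livers Psmb9 (17.7 FPKM) came before Psmb8 (16.6) and Tap1 (15.5), and Nlrc5 (6.57) before Tap2 (6.45), with overlapping values within each of these pairs of neighbours. In AdipoRon livers Psmb8 (15.2 FPKM), Psmb9 (11.5) and Tap1 (11.2) followed each other with overlap between neighbours.

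Over the whole set, the median log2 fold change with AdipoRonPEG5 against vehicle was 0.47, beside -0.001 for all tested genes. The groups were apart, with AdipoRonPEG5 higher, for 8 of the 10 genes and for 18.2% of all tested genes. With AdipoRon against vehicle the median was 0.20, beside 0.01 for all tested genes, and 3 of the 10 (Nlrc5, Tap1 and Tap2) were apart and higher, beside 14.4%. Between the compounds the median was 0.22, beside -0.01 for all tested genes, and 3 (B2m, Tapbp and Psmb10) were apart with AdipoRonPEG5 higher, beside 13.9%. In patterns over the 9 libraries, Psmb10 had Tapbp as its nearest gene (root mean square difference 0.105), while Psmb10 was the 6th nearest to Tapbp, Tap1 and Psmb9 lay 0.179 apart, and B2m and H2-D1 0.0867 apart.

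**Figure D3:**
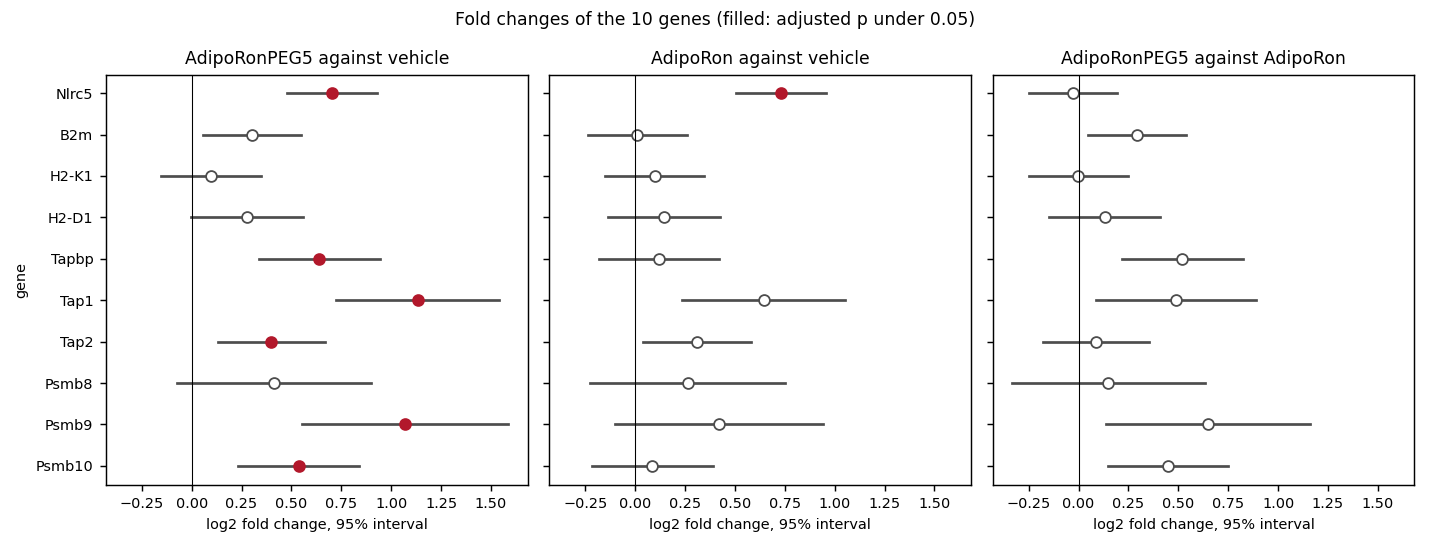
Log2 fold change of each of the 10 genes in the 3 comparisons, with 95% confidence intervals from edgeR's quasi-likelihood fit. Against vehicle, Tap1 and Psmb9 have the largest AdipoRonPEG5 values, at 1.13 and 1.07, and Nlrc5 is alone in passing with AdipoRon.

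AdipoRonPEG5 differs from AdipoRon by an added polyethylene glycol chain, as its description as a PEGylated analog says. The labels name a single dose and time for both compounds and PBS, so it is uncertain that their doses were equal. In the direct comparison none of the 10 genes passed in edgeR, against a background of 2.68% of tested genes higher with AdipoRonPEG5, 2.71% lower and 5.39% in either direction. At an unadjusted p under 0.05, 5 of the 10 were higher with AdipoRonPEG5, beside 21.8% of all tested genes at that p in either direction. DESeq2 called 3 of the 10 and limma-voom 1. Over all genes DESeq2 called 1008 and limma-voom 711, beside 709 in edgeR. Tapbp came closest, with a log2 difference of 0.52, a 95% confidence interval from 0.22 to 0.82 and an adjusted p of 0.0526, and it passed in 10 of the 21 alternatives. The log2 difference was 0.65 for Psmb9 (interval 0.14 to 1.16, adjusted p = 0.132), 0.49 for Tap1 (0.09 to 0.89, adjusted p = 0.147) and 0.45 for Psmb10 (0.15 to 0.75, adjusted p = 0.0856). Each of these passed in at least 1 alternative: without AdipoRon 1, the highest AdipoRon library, the adjusted p was 0.0364 for Psmb9 and 0.0269 for Tap1. For B2m the log2 difference was 0.29 (adjusted p = 0.157), and for H2-D1, Tap2 and Psmb8 it lay between 0.09 and 0.15. Short genes tended to be higher with AdipoRonPEG5 than with AdipoRon. The median log2 difference was 0.11 in the shortest of the 10 length classes, where 8.36% passed as higher. In the longest it was -0.11, with 0.532% higher. B2m is in the shortest class and Psmb10 in the next. Over the 21 alternatives the B2m difference ran from 0.17 to 0.40 and never passed. For H2-K1 the interval ran from -0.25 to 0.25. A value that misses the threshold does not show that the compounds act alike.

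Partners in the pathway were taken from lists drawn up by role. Of 17 genes listed under peptide trimming and class I loading, some with wider roles, 2 rose with AdipoRonPEG5 against vehicle and 1 fell. Their median log2 fold change was 0.04. These shares, 11.8% higher and 5.88% lower, lie near those of all tested genes, 9.55% higher and 7.63% lower. Sppl2a, an intramembrane protease not particular to class I presentation, rose (log2 fold change 0.49 ± 0.09, adjusted p = 0.00358). So did Tapbpl, a tapasin relative that edits peptides (0.45 ± 0.13, adjusted p = 0.0344), a call that ended in 7 alternatives. Hspa5, the main chaperone of the endoplasmic reticulum, fell (-0.91 ± 0.20, adjusted p = 0.0103). With AdipoRon none of the 17 passed in edgeR, and 2 had an unadjusted p under 0.05 (11.8%, beside 21.9% of all tested genes).

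Of 24 other proteasome genes, 2 rose with AdipoRonPEG5 against vehicle and 1 fell. The 8.33% higher and 4.17% lower are near or below the shares of all tested genes. Psme1, a subunit of the PA28 activator that interferon gamma induces, rose (log2 fold change 0.77 ± 0.11, adjusted p = 0.00144), as did Psmb5. Psmg3, a proteasome assembly chaperone, fell (-0.56 ± 0.17, adjusted p = 0.0473), a call that ended in 10 alternatives. Psme2, the partner subunit of Psme1, had a log2 fold change of 0.32 ± 0.10 (adjusted p = 0.0502) and passed in 10 alternatives; it was chosen for mention after its value was seen. Psme1 and Psmb5 were also higher with AdipoRonPEG5 than with AdipoRon, by 0.68 (adjusted p = 0.00861) and 0.45 (adjusted p = 0.00892) on the log2 scale, in the main fit and all 21 alternatives.

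Of 18 tested genes of nonclassical and class I-like molecules, out of 21 listed, 7 rose with AdipoRonPEG5 against vehicle and 1 fell. These are 38.9% and 5.56%, beside 9.55% higher and 7.63% lower of all tested genes. The median log2 fold change of the 18 was 0.30. The 7 that rose included Procr, the protein C receptor of the endothelium (log2 fold change 2.21 ± 0.33, adjusted p = 0.00178). Procr had only 9, 4 and 6 counts in the vehicle libraries. Hfe, which regulates iron uptake, was another of the 7 (0.39 ± 0.07, adjusted p = 0.00321). H2-Q2 also rose (1.90 ± 0.37, adjusted p = 0.00602), in a region of near-identical copies where its reads may belong to neighbours. The gene that fell was Azgp1, a secreted class I-like protein, named after its value was seen. With AdipoRon 3 of the 18 rose (16.7%, beside 3.8% of all tested genes), namely Procr, H2-M3 and H2-T24. The last 2 were named after their values were seen. Between the compounds 4 were higher with AdipoRonPEG5 (22.2%, beside 2.68% of all tested genes), among them H2-Q2 (log2 difference 2.28, adjusted p = 0.0102).

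Over all tested genes 9.55% rose and 7.63% fell with AdipoRonPEG5 against vehicle. Of 26 tested regulators of class I genes, out of 28 listed, 6 (23.1%) rose in that comparison and none fell. They included Ifngr1, a chain of the interferon gamma receptor (log2 fold change 0.72 ± 0.10, adjusted p = 0.00126), Ciita, the class II counterpart of Nlrc5 (2.61 ± 0.37, adjusted p = 0.00144), and Irf8, a factor of myeloid cells (1.17 ± 0.21, adjusted p = 0.00408). Irf1, a transcription factor that interferons induce, also rose (0.64 ± 0.16, adjusted p = 0.0216). The Irf1 call ended without vehicle 1, vehicle 2, AdipoRonPEG5 1 or AdipoRonPEG5 2, at adjusted p-values of 0.0690 to 0.0767. Rfx5, a DNA-binding subunit of the complex that recruits NLRC5, had a log2 fold change of -0.03 ± 0.19 (adjusted p = 0.939). With AdipoRon 3 of the 26 rose (11.5%, beside 3.8% of all tested genes). Among them were Ifngr1 (0.44, adjusted p = 0.0325) and Irf8 (0.88, adjusted p = 0.0392). The third was Tnf, an inflammatory cytokine, named after its value was seen. Tnf had only 4, 0 and 1 counts in the vehicle libraries. Leaving out vehicle 1, vehicle 2, AdipoRon 1 or AdipoRon 2, among other libraries, ended both the Ifngr1 and the Irf8 call; without AdipoRon 1 their adjusted p-values were 0.107 and 0.122. The log2 fold change with AdipoRon was 0.36 for Irf1 (adjusted p = 0.227).

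Of 21 tested interferon gamma targets, out of 22 listed, 17 (81%) rose with AdipoRonPEG5 against vehicle and none fell. Over all tested genes 9.55% rose and 7.63% fell. The median log2 fold change of the targets was 1.53. Cxcl9, a chemokine that draws T cells, rose by 2.20 ± 0.29 on the log2 scale (adjusted p = 0.00100), Gbp2, an interferon-induced GTPase, by 1.74 ± 0.25 (adjusted p = 0.00140), and Ubd, a ubiquitin-like modifier, by 3.97 ± 0.58 (adjusted p = 0.00158). The rise of Ubd was larger without vehicle 3, at 4.77 on the log2 scale. With AdipoRon 9 of the 21 rose (42.9%, beside 3.8% of all tested genes), with a median of 0.88. Between the compounds 2 were higher with AdipoRonPEG5 (9.52%, beside 2.68% of all tested genes). The list overlaps in function with the 10 genes and was drawn up with earlier results of these data known, so it is not independent evidence of their direction. Ifng itself, the interferon gamma gene, had no count in the vehicle libraries, 1 count in 1 AdipoRon library, and 0.37, 0 and 0.06 CPM in AdipoRonPEG5 livers, and was not tested.

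Markers of macrophages and of leukocytes in general moved with the groups, and those of several other liver cells did not pass. As background to the counts below, 9.55% of all tested genes rose and 7.63% fell with AdipoRonPEG5 against vehicle. With AdipoRon 3.8% rose and 1.4% fell. All 12 macrophage and Kupffer cell markers rose with AdipoRonPEG5 against vehicle, and 11 of 12 with AdipoRon, and none of them was at 0 in any library. Within the AdipoRon group their summed level was highest in AdipoRon 1, which was also the highest for each of the 10 class I genes. This was not particular to macrophages. AdipoRon 1 also led its group for the summed interferon gamma targets and pan-leukocyte, T and NK, B, dendritic, endothelial, stellate and hepatocyte markers. For neutrophil and cholangiocyte markers it did not. In AdipoRonPEG5 livers the macrophage sums lay between 781 and 790 CPM, and the highest library differed between the class I genes. The 4 pan-leukocyte markers all rose with both compounds and summed to 53.7 to 57.1 CPM in AdipoRonPEG5, 35.2 to 53.9 CPM in AdipoRon and 14.6 to 19.8 CPM in vehicle livers. The 10 T and NK cell markers summed to 3.95 to 5.37 CPM in AdipoRonPEG5 and 4.03 to 5.86 CPM in AdipoRon livers. In vehicle livers they summed to 2.24 to 4.09 CPM. Of the 5 tested, Cd3e and Gzma rose and Cd4 fell with AdipoRonPEG5 (named after their values were seen). Cd3e had 1 count and Gzma 3 counts in each vehicle library, at or below the floor of 3 counts. The 6 hepatocyte markers were present at 72161 to 80796 CPM in AdipoRonPEG5, 65896 to 75038 CPM in AdipoRon and 76128 to 89494 CPM in vehicle livers, and 4 of the 6 fell with AdipoRonPEG5. Of the tested markers of B cells 2 of 3 rose with AdipoRonPEG5, and of endothelial cells 1 of 6, while none of 3 for dendritic cells, 6 for stellate cells and 4 for cholangiocytes passed in edgeR, with 1, 4 and 1 of them at an unadjusted p under 0.05, beside 31.4% of all tested genes. No neutrophil marker was abundant enough to be tested. The part of these cells in the class I results was not tested.

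**Figure D4:**
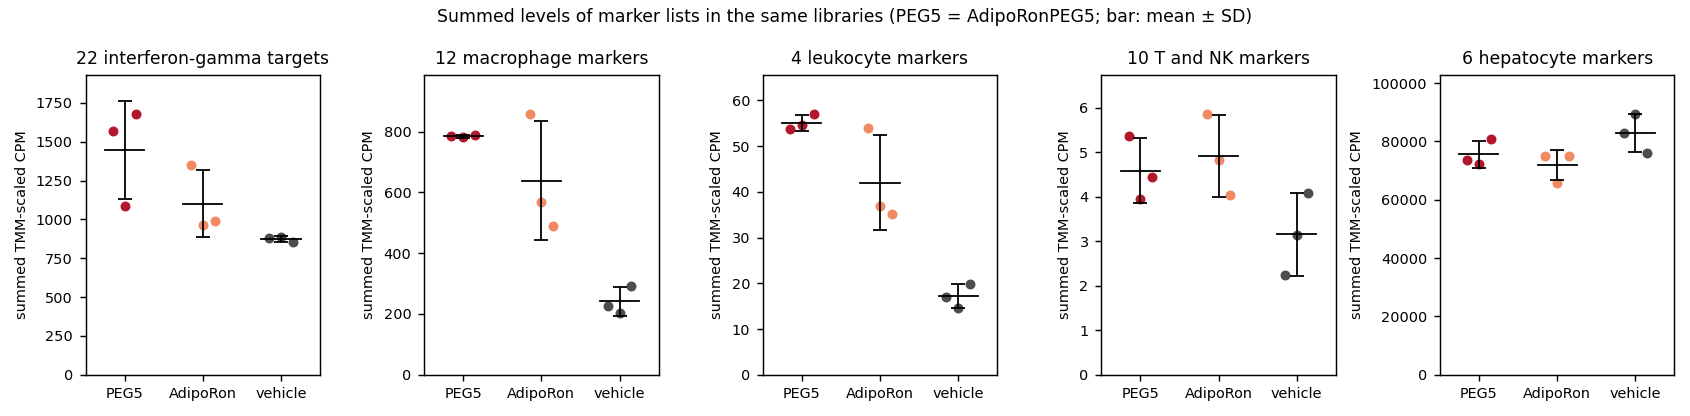
Summed TMM-scaled CPM of 5 lists in each library, with the mean and SD of 3 libraries and axes from 0. The interferon gamma target, macrophage and leukocyte sums of all treated libraries lie above those of all vehicle libraries, while the hepatocyte sums of AdipoRonPEG5 and vehicle libraries overlap.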

How the data were processed

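Liver RNA of 9 libraries in 3 groups of 3 was analysed. The authors deposited 1 table of read counts per gene, with FPKM, which scale the counts by gene length and library total, computed by the authors beside them. Per the submitters' processing notes, STAR 2.5, TopHat, HTSeq 0.6.1, DESeq2 and edgeR were used, with no role or order; build, annotation and strand setting are not given in the sources used here. AdipoRonPEG5 columns carry another prefix and were matched by the samples' description fields.

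Counts were fitted in R 4.3.3 with edgeR 4.0.16: TMM, filterByExpr, 9 libraries, 3 group means, quasi-likelihood test, Benjamini-Hochberg over 13151 genes at 0.05; SE is the size of the log2 fold change over the root of F. The fit was tested on simulated data. FPKM served only for levels between genes, ratios and shares, tested by exact permutation. Replicate numbers did not pair the libraries. Promoters came from RefSeq (GRCm38.p6); shared stretches, overlaps and GC content from GENCODE M21.

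Alternatives were RLE and total-count scaling, no filter, a mean of at least 1 CPM, DESeq2 1.42.0, limma-voom (limma 3.58.1), only 2 groups, a replicate block, vehicle 1 thinned, vehicle 3 and AdipoRonPEG5 1 left out, and each library left out; removal of length, or length and GC, trends was added after seeing the data. The 10 genes and all lists were chosen with earlier results of these data known. Named besides the 10 are up to 3 called genes of lowest p per list, Ifng, Irf1, Rfx5, Psmb5, Psmb6, Psmb7, Saa1 and the 5 genes nearest to Nlrc5; other names are marked as chosen after their values were seen, and 1 gene of the rule is not reported here.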

Additional observations from a re-analysis of the deposited data

How the results depend on the processing

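With AdipoRonPEG5 against vehicle, 4 to 6 of the 10 genes passed with 1 library left out, and 6 with a replicate block; over all tested genes the count was 1337 to 2334 with 1 library left out. With AdipoRon against vehicle 2 of the 10 passed with total-count scaling, no filter or DESeq2, Tap1 being the second each time, and 1 elsewhere. Over all genes it was 684 in the main fit, 947 with total-count scaling, 851 with no filter and 1016 in DESeq2. It was 325 with only the 2 groups, 444 with the replicate block and 250 to 624 with 1 library left out. Between the compounds 1 passed with total-count scaling, a mean of at least 1 CPM, limma-voom, only the 2 groups, the replicate block, vehicle 1 thinned, or vehicle 3 and AdipoRonPEG5 1 left out, 3 with no filter or DESeq2, and 0 to 3 with 1 library left out. Over all genes it was 709 in the main fit, 879 with no filter, 1008 in DESeq2, 338 with the replicate block and 233 to 1032 with 1 library left out. Same-numbered libraries did not deviate together (correlations of -0.268 to 0.0772 over 9 pairs), so the numbers were not taken as pairs.

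The values that changed sign follow. Between the compounds, the H2-K1 log2 difference was 0.0049 with RLE, 0.0049 in DESeq2, 0.0071 with no filter, 0.012 with a mean of at least 1 CPM, 0.0079 in limma-voom, 0.0050 with only the 2 groups, 0.0040 with the replicate block, 0.00013 with vehicle 1 thinned, 0.012 without vehicle 3 and AdipoRonPEG5 1, and -0.060 to 0.12 with 1 library left out. That of Nlrc5 was 0.065 with the length trend removed, 0.056 with length and GC trends removed and -0.10 to 0.064 with 1 library left out. With AdipoRonPEG5 against vehicle, Rfx5 was at 0.049 with total-count scaling and -0.20 to 0.089 with 1 library left out, and Psmb6 at -0.023 to 0.054. With AdipoRon against vehicle and 1 library left out, B2m ran from -0.093 to 0.083, H2-K1 from -0.026 to 0.16, H2-D1 from -0.0049 to 0.24, Tapbp from -0.032 to 0.22, Psmb8 from -0.037 to 0.49 and Psmb10 from -0.019 to 0.16. The difference in the Psmb8 share between AdipoRonPEG5 and vehicle was 0.423 percentage points without vehicle 3 and AdipoRonPEG5 1 and -0.806 to 0.839 with 1 library left out, and that in the Psmb10 share between AdipoRon and vehicle -0.214 to 2.06. The cause was not tested.

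Total-count scaling moved the median log2 fold change of all genes by 0.08 with AdipoRonPEG5 and 0.10 with AdipoRon against vehicle. With 3 libraries a group, the 95% confidence intervals include 0 for H2-K1, H2-D1 and Psmb8 with AdipoRonPEG5 against vehicle.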
